A study of Mus musculus with 12 samples.

Results

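The fetal liver and oncofetal genes described here are Afp, Igf2, H19, Spink1, Gpc3, Dlk1, Cd24a, Ly6d, Tspan8 and Scd2, and every probe set annotated to exactly 1 of these symbols was taken. That gave 21 of the 22626 probe sets of the 430A array and 23 of the 45037 probe sets of the 430 2.0 array, for 9 of the 10 genes. H19 had no probe set of its own: the probe set that carries its name is annotated to H19 and Mir675 together, a microRNA gene that lies within H19. It is described as such and stays outside the counts. These genes were named for the group because several had been seen to differ between livers off NTBC and normal livers in the same arrays, so their differences from normal are given as descriptions without a test.

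Liver RNA of 12 mouse samples was hybridised to Affymetrix arrays, 9 to 430A and 3 to 430 2.0. Fah encodes fumarylacetoacetate hydrolase, which completes tyrosine breakdown. NTBC inhibits the pathway upstream and so protects a liver without Fah from toxic intermediates for as long as it is given. The gene of p21, Cdkn1a, encodes a brake on the cell cycle that acts on cyclin-dependent kinases. All mice were 10 weeks old, and each array measured 10 mg of whole liver.

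The Fah p21 off group on 430A held 2 livers of mice lacking Fah and p21, taken 14 days after NTBC was stopped. The Fah off group held 3 livers of Fah knockout mice after the same withdrawal. The normal group, as the titles define it, pooled 4 livers of different kinds: normal 1 was a wildtype mouse on water, normal 2 a wildtype mouse on NTBC, normal 3 a Fah knockout on NTBC and normal 4 a Fah p21 knockout on NTBC. On 430 2.0 there were 2 Fah p21 off livers, numbered 3 and 4, and 1 normal liver, numbered 4 and also a Fah p21 knockout on NTBC, which may be the same mouse as normal 4 on 430A. The titles call the arrays biological replicates, and no pair of 430A arrays shared more than 0.406% of its signals exactly. The sources used here give neither the knockout alleles nor the strain nor the sex.

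Values are MAS5 signals, on a linear scale and set by the authors to a common array mean. The deleted gene was checked first. On 430A the Fah probe set read 114.2 and 105.3 in Fah p21 off livers, 113.5, 100.8 and 107.5 in Fah off livers, 181.9 and 233.0 in knockouts kept on NTBC, and 6868.1 and 7120.1 in the wildtype livers. Each 430A array thus bore out its Fah genotype. On 430 2.0, where all 3 livers lack Fah, it read 198.7 and 121.7 in Fah p21 off livers and 339.1 in the normal liver. On 430A a Cdkn1a probe set read 9.5 and 8.2 in Fah p21 off livers, against 989.5, 1861.5 and 1195.5 in Fah off livers. Another Cdkn1a probe set stayed readable in the double knockout, at 1827.6 and 2059.6 in Fah p21 off livers and 2814.0, 3675.9 and 3935.7 in Fah off livers, and the sources used here do not say whether its target lies outside the deleted part.

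In the mouse, the liver bud and fetal liver make a set of secreted, surface and imprinted gene products that are shut down in the weeks around birth, while adult enzymes of nitrogen, drug and lipid metabolism are switched on. Afp, Igf2 and H19 are the classical genes of that set, and Gpc3 and Dlk1 mark hepatoblasts. They are called oncofetal because they can be expressed again in regenerating or injured liver and in liver cancer.

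Afp lies on chromosome 5, H19 and Igf2 side by side on chromosome 7, Cd24a and Tspan8 on chromosome 10, Dlk1 on chromosome 12, Ly6d on chromosome 15, Scd2 on chromosome 19 and Gpc3 on chromosome X (GRCm38.p6). RefSeq promoter windows of the same build were at hand for 5 of the 10 genes, Afp, Igf2 with 4 starts, Gpc3, Dlk1 and Tspan8. The 250 bases before the start are printed for Afp, Gpc3 and Dlk1. Afp had the largest change of the 5 genes, Gpc3 had off groups that did not overlap each other, and Dlk1 changed little. The off groups did not overlap on Afp 1416645_a_at and 1416646_at and on Tspan8 1420017_at and 1424649_a_at either, so this does not set Gpc3 apart. Capitals mark matches to 3 motifs, each searched on both strands. The first is TATAAA, the box found close to the start of many genes. The second is CCAAT, bound by several general factors. The third is GTTAAT, part of the site of the liver factor HNF1. Searched in the same way without a match in any window were TGACTCA, the site of AP-1, and TGACNNNGC, the core of the antioxidant response element.

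Afp, chr5:90490464-90490713, plus strand: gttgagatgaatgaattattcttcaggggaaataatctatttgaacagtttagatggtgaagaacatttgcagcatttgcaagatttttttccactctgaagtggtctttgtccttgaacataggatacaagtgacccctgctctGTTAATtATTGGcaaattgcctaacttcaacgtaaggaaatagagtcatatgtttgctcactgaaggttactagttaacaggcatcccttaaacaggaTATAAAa
Gpc3, chrX:52613975-52614224, minus strand: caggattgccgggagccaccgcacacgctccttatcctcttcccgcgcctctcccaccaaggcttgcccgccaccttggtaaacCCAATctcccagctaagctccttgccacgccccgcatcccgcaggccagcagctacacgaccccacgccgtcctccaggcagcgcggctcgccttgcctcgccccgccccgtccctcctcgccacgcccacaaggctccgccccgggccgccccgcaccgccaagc
Dlk1, chr12:109452573-109452822, plus strand: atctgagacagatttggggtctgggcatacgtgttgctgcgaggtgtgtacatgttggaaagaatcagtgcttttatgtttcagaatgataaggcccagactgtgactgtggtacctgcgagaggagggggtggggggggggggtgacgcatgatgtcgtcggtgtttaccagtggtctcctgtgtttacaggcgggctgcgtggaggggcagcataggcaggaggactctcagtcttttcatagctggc

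The Afp window held GTTAAT at 105 to 100 bases before the start. The CCAAT motif lay on its opposite strand at 98 to 94 bases before the start, and the box TATAAA at 7 to 2 bases, without overlap between them. The Gpc3 window held only the second motif, at 166 to 162 bases before the start, the Dlk1 and Tspan8 windows held none of the 5 motifs, and of the 4 Igf2 windows 1 held it on the opposite strand. Of 32536 windows of the same length over all genes, 12.3% held the first motif, 33.8% the second and 6.47% the third, and 4.45% held the AP-1 site and 10.2% the antioxidant core. The windows also differed in base composition, with 36.0% G and C before Afp, 71.6% before Gpc3 and 54.8% before Dlk1, beside a median of 52.4% over all windows. A match is a description of the letters and shows neither a bound site nor a cause.

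Afp encodes alpha-fetoprotein, the albumin relative that is the main plasma protein of the fetus. Its probe set of highest signal, 1416646_at, read 5193.0 and 6477.6 in Fah p21 off livers, 6971.0, 6573.7 and 11848.4 in Fah off livers, and 61.4, 80.0, 135.2 and 111.2 in normal livers. All 5 off arrays lay far above all 4 normal arrays, and Fah off 3 was the highest. The change from normal was 5.82 ± 0.30 on the log2 scale (SE), or 56.4-fold, in Fah p21 off livers and 6.31 ± 0.26, or 79.3-fold, in Fah off livers. Fold changes are on the log2(signal + offset) scale, with an offset of 9.9 signal units on 430A, and understate changes of probe sets whose signal is near it.

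The other Afp probe sets did not all read alike. Probe set 1416645_a_at read 4132.8 and 4360.7 in Fah p21 off livers, 4515.3, 5157.3 and 6672.0 in Fah off livers and 37.9 to 76.3 in normal livers. Probe set 1436879_x_at read 4322.4 and 5171.7 in Fah p21 off livers and 418.3, 5683.3 and 8201.0 in Fah off livers, against 10.1, 12.0, 20.4 and 17.8 in normal livers. Fah off 1 was thus more than 10 times below the other off arrays on this probe set, while its signals on 1416645_a_at and 1416646_at lay within the range of the other off arrays. The change from normal on 1436879_x_at was 7.59 ± 0.88 in Fah p21 off livers and 6.79 ± 0.77 in Fah off livers (log2, SE), and 8.12 in Fah off livers without Fah off 1.

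Afp probe set 1436881_x_at was dim, with 111.4 and 130.0 in Fah p21 off livers, 75.7, 134.7 and 96.5 in Fah off livers, and 2.4, 5.1, 8.3 and 31.9 in normal livers. The off arrays again lay above all normal arrays. Probe set 1436880_at read between 3.4 and 7.9 on every array, below the offset. It was too dim for the test. Fah p21 off livers read 6.5 and 5.9 and normal livers 4.0 to 5.4, so the Fah p21 off livers lay wholly above, and the Fah off livers, at 3.4 to 7.9, overlapped the normal ones.

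**Figure D1:**
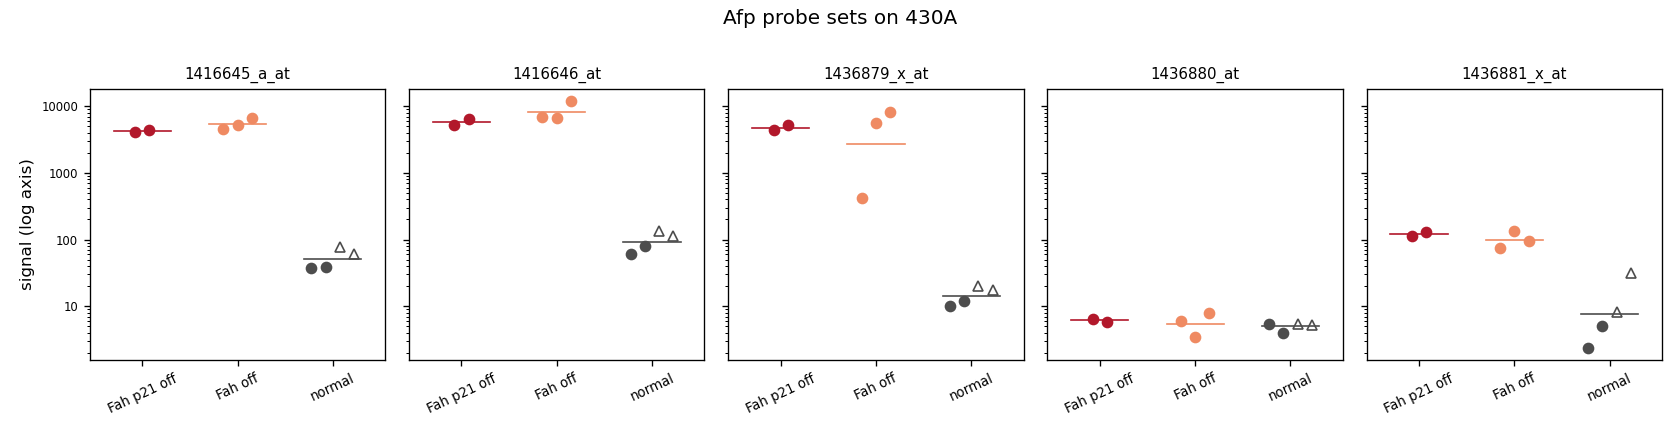
MAS5 signal (log axis) of the 5 Afp probe sets on each 430A array, with a point for each array, bars for the geometric mean of a group, and open triangles for knockout livers on NTBC. On 3 probe sets the off arrays read at 418.3 or more, with Fah off 1 lowest on 1436879_x_at, while 1436880_at stayed between 3.4 and 7.9 on every array.

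Igf2 is the imprinted growth factor of the fetus, expressed from the paternal allele and nearly silent in adult mouse liver. Probe set 1448152_at read 1124.7 and 442.0 in Fah p21 off livers, 377.6, 574.0 and 1040.7 in Fah off livers, and 120.7, 144.1, 90.7 and 91.1 in normal livers. Off and normal arrays did not overlap, while within each off group the highest array read more than 2 times the lowest. Against normal it changed by 2.58 ± 0.41 (log2, SE), or 5.99-fold, in Fah p21 off livers and 2.37 ± 0.36, or 5.18-fold, in Fah off livers. In Fah p21 off livers it was 1.92 without Fah p21 off 1 and 3.25 without Fah p21 off 2. The second Igf2 probe set, 1415931_at, was too dim for the test, at 69.5 and 69.0 in Fah p21 off livers, 50.2 to 96.3 in Fah off livers and 11.3 to 38.1 in normal livers.

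H19 is the noncoding RNA of the maternal allele next to Igf2, and it is the host transcript of the microRNA miR-675. The probe set annotated to H19 and Mir675 read 1342.5 and 2364.9 in Fah p21 off livers, 195.1, 541.5 and 1367.4 in Fah off livers, and 55.1, 52.6, 52.4 and 69.3 in normal livers. Every off array lay above every normal array, and the highest Fah off liver, Fah off 3, was level with Fah p21 off 1. Relative to normal it changed by 4.74 ± 0.55 (log2, SE) in Fah p21 off livers and 3.01 ± 0.49 in Fah off livers, the second being 3.70 without Fah off 1 and 2.33 without Fah off 3. Fah off 3 was also the highest Fah off array for Igf2, Gpc3 and Afp 1416646_at.

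Spink1, on chromosome 18, encodes a secreted Kazal-type trypsin inhibitor, best known from the pancreas. Its probe set read 408.7 and 503.8 in Fah p21 off livers, 476.2, 481.2 and 434.5 in Fah off livers, and 5.9, 8.6, 7.0 and 11.3 in normal livers. The 5 off arrays lay close together, and the normal signals lay near or below the offset. The change was 4.69 ± 0.21 (log2, SE) in Fah p21 off livers and 4.72 ± 0.19 in Fah off livers, and it was 5.66 and 5.69 with an offset of 1 signal unit. Of 5 tested pancreas markers 0 passed limma's test in either off group against normal. There were 0 at an unadjusted p under 0.05, and 0 passed without the intensity trend. Over 1 probe set for each of 9195 genes, 17.8% passed higher and 11.5% lower in Fah p21 off livers, and 19.7% and 16.5% in Fah off livers. In Fah p21 off livers against wildtype livers alone, Cela3b (0.78, limma adjusted p = 0.0114) and Prss2 (0.72, limma adjusted p = 0.0125) passed. Cela3b also passed without normal 4, and with the replicate number as a block (limma adjusted p = 0.0328). Against the Fah knockout on NTBC alone, a single liver, Cela1 changed by 1.05 in Fah off livers, beside 0.45 from all normal livers. Between knockout livers on NTBC and wildtype livers Cela1 passed, with a difference of -1.14 ± 0.16 (log2, SE, limma adjusted p = 0.0387). Without the filter on low signals its limma adjusted p was 0.0521. Over all 9 arrays the acinar gene Cpa1 read between 1.5 and 3.2, and Cela1 between 803.9 and 1946.1.

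Among the surface proteins, Ly6d had the largest change from normal in Fah off livers. Ly6d is a lipid-anchored protein of the Ly6 family, known as a marker of B cell precursors and of keratinocytes. Its probe set read 2236.2 and 3965.1 in Fah p21 off livers, 3048.1, 3873.4 and 3383.3 in Fah off livers, and 7.5, 13.0, 10.2 and 12.5 in normal livers. The change was 7.18 ± 0.23 (log2, SE) or 145-fold in Fah p21 off livers and 7.38 ± 0.20 or 167-fold in Fah off livers. Because the normal signals are near the offset, these folds move with it, to a log2 change of 8.01 in Fah p21 off livers and 8.21 in Fah off livers with an offset of 1 signal unit. Over 1 probe set for each of 9195 genes, 17.8% passed higher in Fah p21 off livers and 19.7% in Fah off livers. Of 5 tested B lymphocyte markers 1, Ighm, passed higher in each off group. In Fah p21 off livers it did not pass in 8 alternatives (limma adjusted p 0.0561 to 0.204, among them each Fah p21 off array left out), and in Fah off livers not in 5 (0.0701 to 0.222, among them Fah off 1 or Fah off 2 left out). The B cell receptor gene Cd79a read 140.3 and 95.8 in Fah p21 off livers, 85.6 to 117.5 in Fah off livers and 73.2 to 136.4 in normal livers.

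Gpc3 encodes glypican 3, a heparan sulfate proteoglycan that restrains fetal growth and is a serum and tissue marker of human hepatocellular carcinoma. It read 357.0 and 400.6 in Fah p21 off livers, 604.7, 639.0 and 1626.9 in Fah off livers, and 58.7, 34.4, 72.3 and 70.1 in normal livers. The 3 groups did not overlap, with the Fah off livers highest. Over all tested probe sets, 10.9% had the Fah p21 off livers wholly below the Fah off livers and 17.1% wholly above. Relative to normal livers Gpc3 changed by 2.54 ± 0.38 (log2, SE) or 5.80-fold in Fah p21 off livers and 3.70 ± 0.33 or 13.0-fold in Fah off livers.

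Cd24a encodes a small lipid-anchored sialoglycoprotein found on immature cells of many tissues, among them liver progenitors and biliary cells. Probe set 1448182_a_at read 471.9 and 845.2 in Fah p21 off livers, 180.2, 372.1 and 284.9 in Fah off livers, and 52.6, 34.2, 43.0 and 67.7 in normal livers. Again the 3 groups did not overlap, here with the Fah p21 off livers highest, and the same order held on the other Cd24a probe sets, 1416034_at and 1437502_x_at. The change on 1448182_a_at was 3.47 ± 0.33 (log2, SE), or 11.1-fold, in Fah p21 off livers and 2.26 ± 0.29, or 4.79-fold, in Fah off livers.

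Cholangiocyte markers are given beside Cd24a. Of 7 tested markers 6 passed higher and 1 lower in each off group against normal. The 6 passed the filter on low signals only through the off livers, which favours a higher value there, so their count is no support. The summed signal of the list, which holds 10 genes with a probe set, ran from 1753.5 to 2813.6 in Fah p21 off livers, 1868.2 to 1965.0 in Fah off livers and 482.9 to 859.1 in normal livers. The keratins that define bile duct cells were below the filter: Krt19 read 29.1 and 60.8 in Fah p21 off livers, 11.8 to 42.5 in Fah off livers and 15.5 to 30.4 in normal livers, and Krt7 read 7.7 to 36.0 over all arrays. Their part in the result was not tested. In whole liver RNA, more cells of a type and more RNA per cell cannot be told apart.

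Scd2 encodes a stearoyl-CoA desaturase, the isoform of fetal and newborn liver, whose place in the adult liver is taken by Scd1. Probe set 1415822_at read 1241.3 and 588.5 in Fah p21 off livers, 341.9, 449.8 and 201.4 in Fah off livers, and 76.2, 57.9, 70.2 and 132.1 in normal livers. The groups did not overlap, and normal 4, the double knockout on NTBC, was the highest of the normal livers. Scd2 1415822_at changed by 3.26 ± 0.38 (log2, SE) in Fah p21 off livers and 1.85 ± 0.34 in Fah off livers. Against normal 4 alone the change in Fah p21 off livers was 2.61. Probe sets 1415823_at and 1415824_at gave smaller changes, 2.34 ± 0.31 and 1.88 ± 0.42 in Fah p21 off livers and 1.45 ± 0.28 and 0.78 ± 0.37 in Fah off livers.

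Scd1 went the other way. It read 689.6 and 2274.5 in Fah p21 off livers, 812.7, 589.7 and 1168.9 in Fah off livers, and 9780.5, 9794.9, 10327.3 and 3435.5 in normal livers. The off arrays lay below all normal arrays, of which normal 4 stood apart. Scd1 fell by 2.60 ± 0.51 on the log2 scale in Fah p21 off livers (SE, limma adjusted p = 0.00332) and by 3.20 ± 0.45 in Fah off livers (limma adjusted p = 0.000276). Against normal 4 alone the log2 change in Fah p21 off livers was -1.45 (limma adjusted p = 0.140), and without Fah p21 off 1 it was -1.74 (limma adjusted p = 0.0600), and -3.45 without Fah p21 off 2.

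Dlk1 and Tspan8 were the genes with little or uneven change. Dlk1, a Delta-like transmembrane protein of hepatoblasts encoded by an imprinted locus, read 110.6 and 59.3 in Fah p21 off livers, 106.2, 118.9 and 89.2 in Fah off livers, and 52.1, 54.6, 67.4 and 71.2 in normal livers. Fah off livers lay above the normal ones, while Fah p21 off 2 lay among them. The change from normal was 0.37 ± 0.28 (log2, SE) in Fah p21 off livers, -0.03 without Fah p21 off 1 and 0.77 without Fah p21 off 2, and it was 0.69 ± 0.25 in Fah off livers.

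Tspan8 encodes a tetraspanin of epithelial and tumour cells. Its probe set of highest signal, 1420017_at, read 298.4 and 255.2 in Fah p21 off livers, 208.1, 254.0 and 210.1 in Fah off livers, and 211.8, 211.3, 227.8 and 328.2 in normal livers. The groups overlapped, with normal 4 the highest of all 9 arrays. A second probe set, 1424649_a_at, was too dim for the test but read 63.8 and 86.1 in Fah p21 off livers, 43.8, 16.4 and 25.1 in Fah off livers, and 2.7, 11.7, 18.2 and 8.3 in normal livers. On it the Fah p21 off livers lay above all others, and the Fah off livers overlapped the normal ones. The other Tspan8 probe sets, 1420018_s_at and 1420019_at, read 0.9 to 6.2 and 5.8 to 75.4 over all arrays and were not tested.

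**Figure D2:**
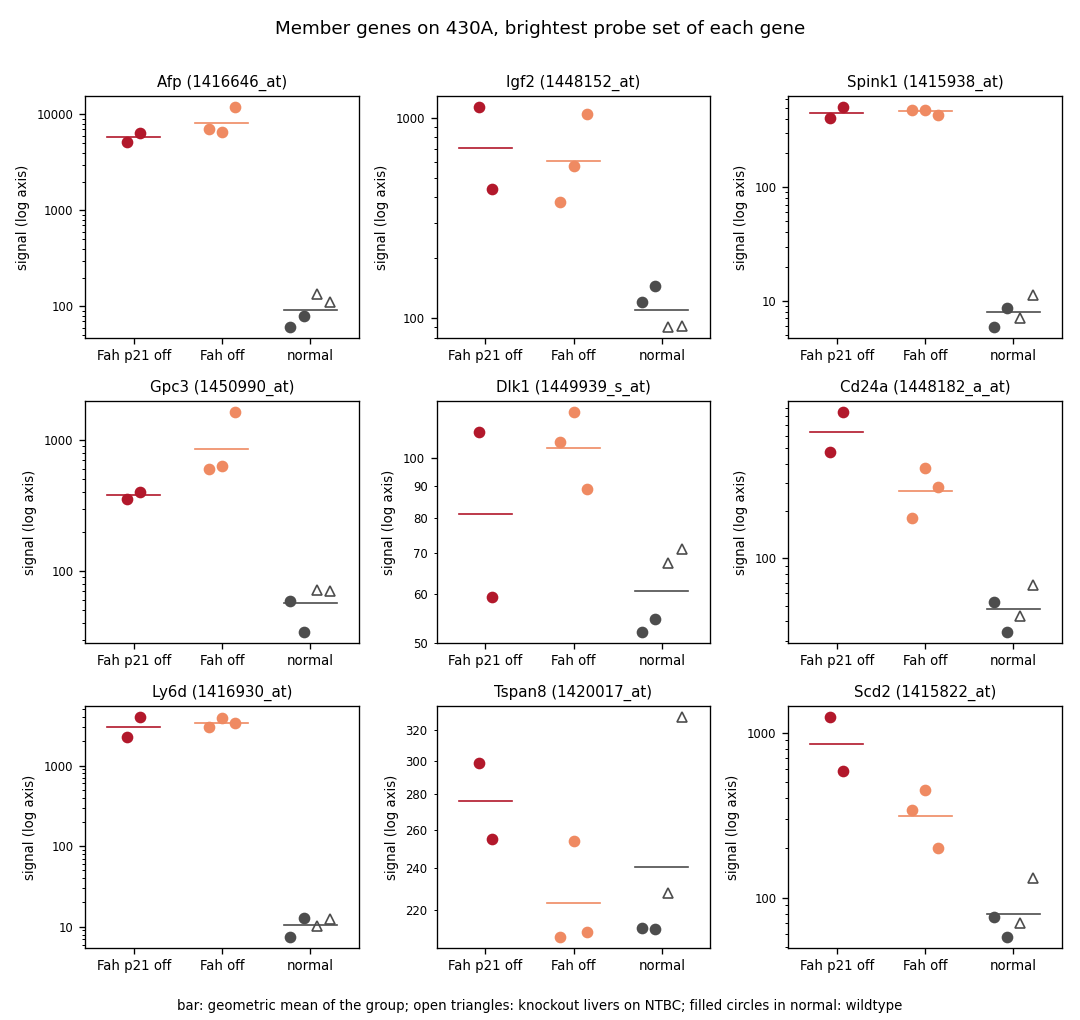
MAS5 signal (log axis) of the probe set of highest mean signal of each of the 9 genes on each 430A array, with points for arrays and bars for the geometric mean of a group and open triangles for knockout livers on NTBC, in the order Fah p21 off, Fah off and normal. Off livers lie above all normal livers for every gene except Dlk1, where Fah p21 off 2 at 59.3 lies among the normal livers, and Tspan8, where the groups overlap.

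Counted over the 21 probe sets, 17 had the Fah p21 off livers wholly above the normal livers and 15 the Fah off livers, and 0 lay wholly below in either case. Over all 22626 probe sets without a filter, 23.9% lay wholly above in Fah p21 off livers and 17.8% in Fah off livers. Because the genes were chosen on this contrast, nothing is read from these counts. The probe sets nearest the edge were those of Dlk1 and Tspan8 on one side and Scd2 1415824_at, at 0.78 in Fah off livers, on the other. The rest of the 16 tested probe sets changed by 1.45 or more in Fah off livers.

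**Figure D3:**
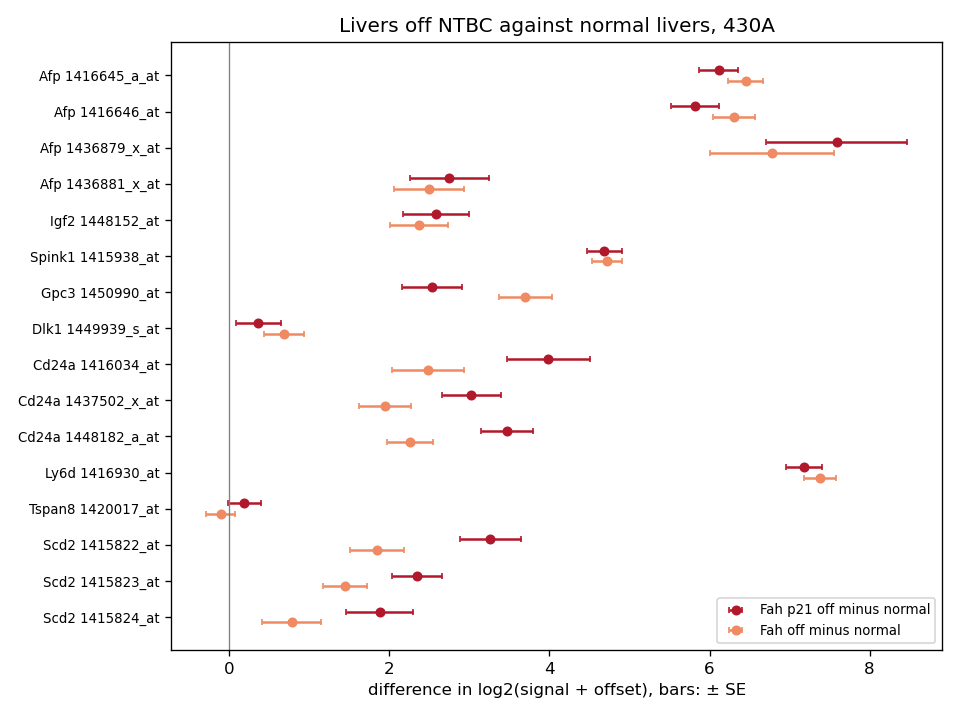
Log2 change from normal livers of the 16 tested probe sets of the 9 genes on 430A, with bars for 1 SE, for Fah p21 off and Fah off livers. Ly6d and Afp 1436879_x_at lie farthest out, at 7.18 and 7.59 in Fah p21 off livers, and Tspan8 1420017_at lies near 0, at 0.19 in Fah p21 off livers and -0.10 in Fah off livers.

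Whether loss of p21 changed these genes in livers off NTBC was asked by comparing the Fah p21 off with the Fah off livers. None of the 16 tested probe sets passed limma's test at an adjusted p under 0.05 over all 15307 probe sets tested, of which 0.0392% passed. By limma without the intensity trend 0 passed too. At an unadjusted p under 0.05 there were 7, 3 of Cd24a, 3 of Scd2 and 1 of Gpc3, where 8.06% of all tested probe sets had such a p. The 3 probe sets of a gene read the same transcript and are not independent. The median difference was 0.27 on the log2 scale, beside 0.06 over all tested probe sets.

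Cd24a was higher in the Fah p21 off livers on each of its probe sets. Every Fah p21 off array lay above every Fah off array, as for 17.1% of all tested probe sets. The difference was 1.21 ± 0.34 on 1448182_a_at (log2, SE, 95% interval 0.45 to 1.97, limma adjusted p = 0.337). On 1416034_at it was 1.50 ± 0.54 (limma adjusted p = 0.483), and on 1437502_x_at 1.07 ± 0.39 (limma adjusted p = 0.483). When the knockout liver on NTBC of each genotype was subtracted first, the difference was 0.66 on 1448182_a_at, -0.15 on 1416034_at and 0.09 on 1437502_x_at. Normal 4, the double knockout on NTBC, read 67.7 and normal 3, the Fah knockout on NTBC, 43.0 on 1448182_a_at, and 62.5 and 13.1 on 1416034_at.

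Scd2 differed in the same direction, by 1.42 ± 0.40 on 1415822_at (log2, SE, 95% interval 0.53 to 2.30, limma adjusted p = 0.336). It was 0.90 ± 0.33 on 1415823_at (limma adjusted p = 0.494) and 1.10 ± 0.44 on 1415824_at (limma adjusted p = 0.554). With the livers on NTBC subtracted first the difference on 1415822_at was 0.59. Stellate cell markers had a summed signal of 8479.8 and 9818.9 in Fah p21 off livers and 5773.2 to 7857.8 in Fah off livers, and 3646.3 to 4858.5 in normal livers, and of 10 tested markers 0 passed limma's test between the genotypes, 0 without the intensity trend, with 2 at an unadjusted p under 0.05. Their part in the result was not tested.

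Gpc3 differed in the other direction, by -1.16 ± 0.40 (log2, SE, 95% interval -2.03 to -0.29, limma adjusted p = 0.458). Without Fah off 3, which had the highest signal, the difference was -0.70. The probe set annotated to H19 and Mir675 differed by 1.74 ± 0.58 (limma adjusted p = 0.440), with overlapping arrays, and by 1.04 without Fah off 1 and 2.41 without Fah off 3.

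For the secreted proteins and Ly6d the intervals held 0. Spink1 differed by -0.03 ± 0.22 (log2, SE) and Ly6d by -0.20 ± 0.24. Afp differed by -0.49 ± 0.32 on 1416646_at (limma adjusted p = 0.720), and on 1436879_x_at by 0.80 ± 0.93, which turned to -0.53 without Fah off 1 and was 1.60 without Fah off 3. Igf2 differed by 0.21 ± 0.43 (95% interval -0.74 to 1.16), turning to -0.46 without Fah p21 off 1 and becoming 0.87 without Fah p21 off 2. These p-values do not show that the genotypes act alike.

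**Figure D4:**
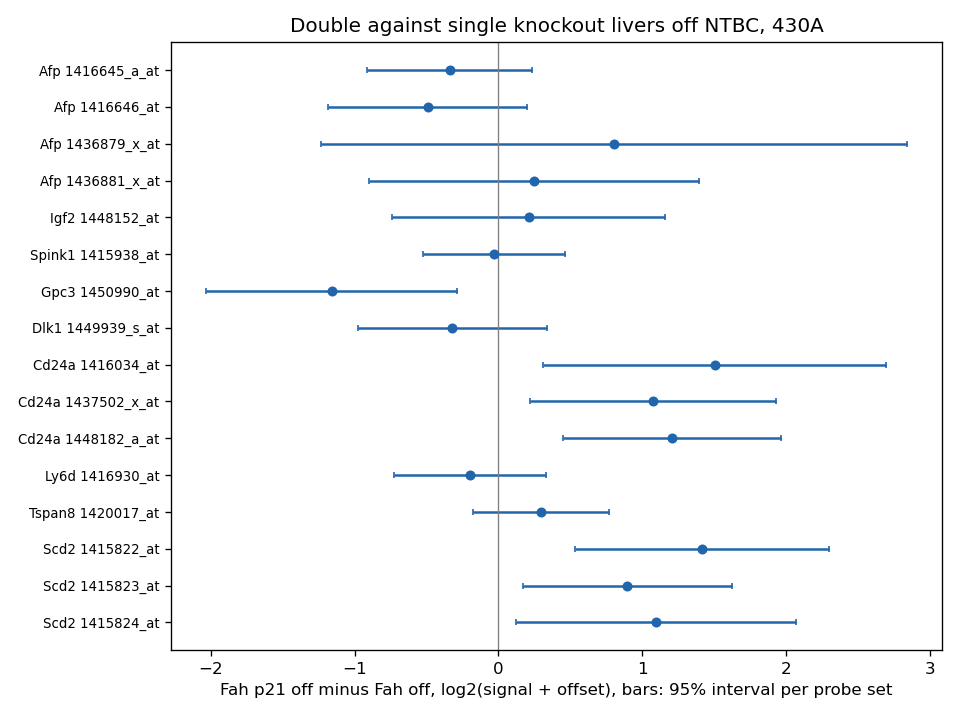
Difference of the Fah p21 off from the Fah off livers on 430A (log2) for the 16 tested probe sets, with bars for the 95% interval of each probe set taken singly. The bars of the Cd24a and Scd2 probe sets lie above 0 and that of Gpc3 below 0, and none of the probe sets passed after adjustment, with a smallest adjusted p of 0.336.

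The normal livers let knockout livers kept on NTBC be compared with wildtype livers, with 2 of each. None of the 16 tested probe sets passed limma's test, of 0.15% that passed over all, and 0 passed without the intensity trend. At an unadjusted p under 0.05 there were 3, where 19.3% of all tested probe sets had such a p. These were Afp 1416645_a_at, Afp 1416646_at and Scd2 1415823_at.

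On Afp 1416645_a_at the knockout livers on NTBC read 76.3 and 60.3 and the wildtype livers 37.9 and 39.4, a difference of 0.68 ± 0.20 (log2, SE, limma adjusted p = 0.137). On 1416646_at they read 135.2 and 111.2, against 61.4 and 80.0 in wildtype livers, a difference of 0.73 ± 0.27 (limma adjusted p = 0.202). Both knockout livers lay above both wildtype livers on each probe set, as 37.2% of all tested probe sets did. Scd2 1415823_at differed by 0.73 ± 0.29 (limma adjusted p = 0.218). With Afp at these levels in knockout livers on NTBC, the Fah off livers changed by 5.82 (log2) from the Fah knockout on NTBC alone on 1416646_at, beside 6.31 from all normal livers.

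The 430 2.0 arrays gave 2 further Fah p21 off livers and 1 normal liver, scaled apart from 430A, so that values are compared within the array type only and there is no test. Of 23 probe sets of the 9 genes, 14, of 8 genes, were at least 2-fold higher in both Fah p21 off livers, as were 9.51% of all 45037 probe sets, and the genes were chosen on the same contrast. Fold changes here use an offset of 3.8 signal units.

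Afp 1416646_at read 14932.1 and 14139.3 in Fah p21 off livers and 148.8 in the normal liver, or 97.9-fold and 92.7-fold. Probe set 1436879_x_at, on which Fah off 1 had been low on 430A, read 16787.4 and 18056.9 in Fah p21 off livers and 126.8 in the normal liver. Probe set 1416645_a_at read 16308.8 and 17095.4 in Fah p21 off livers, against 567.2 in the normal liver. All 3 were high in both off livers. The dimmer 1436881_x_at did not follow, with 66.7 and 193.8 in Fah p21 off livers and 75.2 in the normal liver.

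Ly6d read 4593.8 and 5794.9 in Fah p21 off livers and 37.5 in the normal liver, or 111-fold and 140-fold. Spink1 read 763.8 and 968.8 in Fah p21 off livers and 7.3 in the normal liver. The probe set annotated to H19 and Mir675 read 5200.9 and 3654.0 in Fah p21 off livers and 5.5 in the normal liver, 560-fold and 393-fold on a normal signal close to the offset. Each was again high in both off livers.

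Igf2 1448152_at read 1299.5 and 858.5 in Fah p21 off livers and 64.4 in the normal liver. Gpc3 read 491.2 and 532.7 in Fah p21 off livers and 36.5 in the normal liver, or 12.3-fold and 13.3-fold. Cd24a 1448182_a_at read 2636.1 and 2556.0 in Fah p21 off livers and 150.1 in the normal liver. Igf2, Gpc3 and Cd24a thus read at least 10-fold above that liver in both off livers. Scd2 1415822_at read 3157.3 and 2348.5 in Fah p21 off livers and 338.3 in the normal liver, or 9.24-fold and 6.88-fold.

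Dlk1 changed little, and Tspan8 differed by probe set. Dlk1 1449939_s_at read 60.1 and 43.3 in Fah p21 off livers and 28.5 in the normal liver, or 1.98-fold and 1.46-fold, and Dlk1 1442724_at read at most 10.4. Tspan8 1424649_a_at, dim on 430A, read 274.6 and 153.2 in Fah p21 off livers and 23.9 in the normal liver, while Tspan8 1420017_at read 122.1 and 126.4 in Fah p21 off livers and 82.5 in the normal liver. The Tspan8 probe sets therefore disagreed on both array types.

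**Figure D5:**
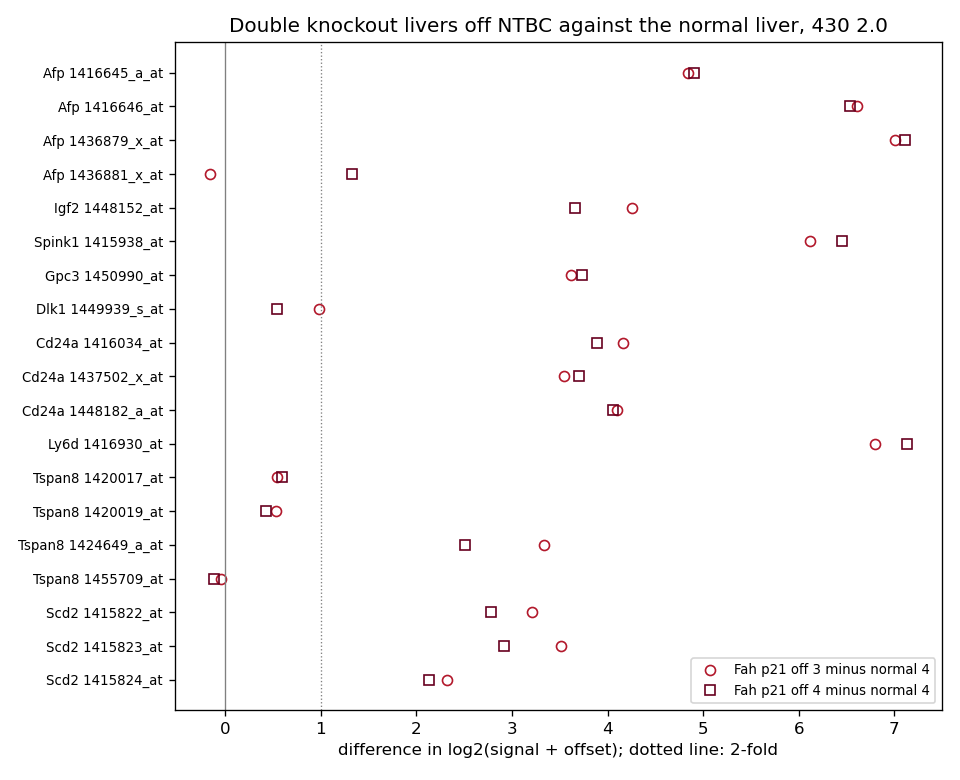
Difference in log2(signal + offset) of each of the 2 Fah p21 off livers from the normal liver on 430 2.0, for the 19 probe sets of the 9 genes that passed the filter, with a circle and a square for the livers and a dotted line at 2-fold. Afp 1436879_x_at and Ly6d lie farthest right, at 100-fold or more in both livers, and Dlk1 1449939_s_at lies left of the dotted line in both, at 1.98-fold and 1.46-fold.

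Beyond these genes, 13 of a list of 24 further fetal and oncofetal genes were tested. Of the 13, 7 passed the filter on low signals only through the off livers, which favours a higher value there, among them Prom1 and Sox4, and no count over these is given as support. Of the 6 that normal livers also carried past the filter, 5 passed higher and 0 lower in Fah p21 off livers, and 4 higher and 0 lower in Fah off livers. Over 1 probe set for each of 9195 genes, which include genes that passed the filter through the off livers, 17.8% passed higher in Fah p21 off livers and 19.7% in Fah off livers. The list was drawn up with earlier results of these arrays known and is no independent evidence of its direction.

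The largest of these changes were in Prom1, Lpl, Pkm and Sox4. Prom1, the progenitor surface protein CD133, rose by 3.46 ± 0.37 in Fah p21 off livers (log2, SE) and by 2.86 ± 0.33 in Fah off livers. In Fah p21 off livers the change of Prom1 was 4.15 with array 1 left out and 2.76 with array 2 left out. Pkm, the pyruvate kinase of fetal and proliferating tissue, rose by 3.03 ± 0.33 in Fah p21 off livers and by 3.29 ± 0.29 in Fah off livers. Sox4, a transcription factor of progenitor cells, rose by 2.88 ± 0.23 in Fah p21 off livers and by 3.07 ± 0.20 in Fah off livers.

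Lpl, the lipoprotein lipase that newborn but not adult rodent liver makes, was the gene of this list that also passed between knockout livers on NTBC and wildtype livers. It read 4129.6 and 5144.3 in Fah p21 off livers, 5022.1, 4548.8 and 3673.4 in Fah off livers, 857.4 and 645.4 in knockout livers on NTBC, and 260.1 and 258.2 in wildtype livers. The knockout livers on NTBC lay between the off livers and the wildtype livers. Their difference from wildtype was 1.49 ± 0.20 (log2, SE, limma adjusted p = 0.0319). The limma adjusted p was 0.0521 without the filter on low signals, 0.0718 with quantile normalization and 0.0613 without the intensity trend, so Lpl did not pass there. The difference was 1.49, 1.48 and 1.28 without normal 1, 2 or 3, each of which leaves 1 liver in a group.

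Imprinted genes of fetal growth, other than the genes of this report, were tested too. Of 14 tested, 6 passed higher and 2 lower in Fah p21 off livers, where 17.8% and 11.5% of all genes did. In Fah off livers 8 passed higher and 2 lower, where 19.7% and 16.5% of all genes did. Among the imprinted genes higher in each group, 3 passed the filter only through the off livers, Phlda2, Cdkn1c and Plagl1. That favours a higher value there, so these 3 are no support. Phlda2, a growth restrainer of the placenta, rose by 3.07 ± 0.32 in Fah p21 off livers (log2, SE) and by 3.17 ± 0.28 in Fah off livers. Peg3, a paternally expressed zinc finger gene, rose by 1.83 ± 0.33 in Fah p21 off livers and by 2.95 ± 0.29 in Fah off livers. Cdkn1c, the imprinted inhibitor of cyclin-dependent kinases, rose by 1.99 ± 0.45 in Fah p21 off livers (1.81 without Fah p21 off 1) and by 2.90 ± 0.39 in Fah off livers. In Fah off livers the change of Cdkn1c was 2.00 against the Fah knockout on NTBC alone and 2.19 with the offset at the 25th percentile. Meg3, the noncoding RNA of the Dlk1 locus, read 304.1 and 439.8 in Fah p21 off livers, 257.4 to 589.3 in Fah off livers and 339.4 to 842.0 in normal livers, with overlap, and did not pass.

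Of 12 tested receptors and binding proteins of the insulin-like growth factors, 2 passed higher and 4 lower in Fah p21 off livers. In Fah off livers 3 passed higher and 2 lower. Of all genes, 17.8% passed higher and 11.5% lower in Fah p21 off livers, and 19.7% and 16.5% in Fah off livers. Igfbp1 and Igfbp6, which bind these factors in plasma and tissue, rose by 2.39 ± 0.29 and 2.41 ± 0.25 in Fah p21 off livers and by 2.92 ± 0.26 and 2.84 ± 0.22 in Fah off livers (log2, SE). Igfbp2 differed between the genotypes. It read 825.2 and 1261.6 in Fah p21 off livers and 2664.0, 3090.8 and 4732.7 in Fah off livers, with 4326.6 to 5107.7 in normal livers. The difference of the Fah p21 off from the Fah off livers was -1.72 ± 0.24 (log2, SE, limma adjusted p = 0.0472), and the adjusted p was over 0.05 in 12 alternatives, with values from 0.0515 to 0.617.

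Of 18 tested regulators of Afp and of the fetal programme, 1 passed higher and 6 lower in Fah p21 off livers. In Fah off livers 1 passed higher and 5 lower. The shares of all genes were 17.8% higher and 11.5% lower in Fah p21 off livers, and 19.7% and 16.5% in Fah off livers. Cebpa, the factor of mature hepatocytes, fell by 1.16 ± 0.13 in Fah p21 off livers and by 1.07 ± 0.11 in Fah off livers (log2, SE). Zbtb20, known in the mouse as a repressor of Afp after birth, read 589.5 and 612.9 in Fah p21 off livers, 361.7 to 683.2 in Fah off livers and 405.1 to 720.6 in normal livers, and did not pass in either comparison. Onecut1, a factor of liver development, fell by 1.28 ± 0.41 in Fah p21 off livers (limma adjusted p = 0.0372, 0.181 with Fah p21 off 1 left out, 0.131 with Fah p21 off 2 left out, and 0.0623 to 0.0739 without normal 1, 3 or 4) and by 1.62 ± 0.36 in Fah off livers.

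Relatives of the genes went in both directions. Of 13 tested, 3 passed higher and 3 lower in Fah p21 off livers, where 17.8% and 11.5% of all genes did. In Fah off livers 2 passed higher and 3 lower, where 19.7% and 16.5% of all genes did. Alb and Afm, neighbours and relatives of Afp that adult liver expresses, both fell. Alb is also among the hepatocyte markers given below, whose counts depended on the normalization. The log2 change of Alb was -0.55 ± 0.09 in Fah p21 off livers and -0.41 ± 0.08 in Fah off livers (SE), and that of Afm was -2.21 ± 0.31 in Fah p21 off livers and -3.54 ± 0.27 in Fah off livers. Cd9, a tetraspanin like Tspan8, rose by 3.08 ± 0.26 in Fah p21 off livers and by 2.80 ± 0.23 in Fah off livers.

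Of 15 tested genes that adult liver switches on after birth, 14 passed lower and 0 higher in each off group. This list too was drawn up with earlier results of these arrays known and is no independent evidence of its direction. Hal, which starts histidine breakdown, fell by 3.06 ± 0.19 in Fah p21 off livers and by 3.88 ± 0.16 in Fah off livers (log2, SE). Over all genes 11.5% passed lower in Fah p21 off livers and 16.5% in Fah off livers. Of 8 tested hepatocyte markers 7 passed lower in Fah p21 off livers and 8 in Fah off livers. These counts depended on the normalization. With quantile normalization Apoa2 changed by -0.06 (limma adjusted p = 0.54) and Ahsg by -0.20 (limma adjusted p = 0.0688) in Fah p21 off livers. In Fah off livers Apob then changed by -0.27 (limma adjusted p = 0.408). The summed signal of the marker list ran from 77197.9 to 81491.0 in Fah p21 off livers, 81758.0 to 91299.7 in Fah off livers and 125379.7 to 132791.6 in normal livers. Of 5 tested erythroid markers 1 passed higher and 2 lower in each off group, and of 6 tested neutrophil markers 1, Lcn2, passed higher in each. The share of all genes that passed higher was 17.8% in Fah p21 off livers and 19.7% in Fah off livers.

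Across the 9 arrays, the gene whose log2 signals followed those of Afp most closely among 9048 genes was Ctps2, with a Pearson correlation of 0.997, followed by Klf6. For Gpc3 it was Palmd (0.995), for Igf2 Psmc6 (0.983), for Dlk1 Cyp2g1 (0.969), for Cd24a Rabggtb (0.987), for Scd2 Srpk1 (0.980) and for Tspan8 Vgll4 (0.958). For both Ly6d and Spink1 it was Atpif1 (0.998). These correlations are descriptions over 9 arrays that share the contrast between off and normal livers, which alone lifts them.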

How the data were processed

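Liver RNA was measured on 9 arrays of the 430A design and 3 of the 430 2.0 design, and the deposited values are linear intensity signals, 1 for each probe set on each array. Per the submitters' processing notes the authors made them with MAS5 and GCOS 1.4.0.036. Means between the 2nd and 98th percentile lay near 350 on each array. The sources used here give no scan dates. Arrays were grouped by title and source label.

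The analysis used log2(signal + offset), where the offset was the 10th percentile of all signals in a table. After 64 controls were left out of each table, probe sets reaching the 40th percentile of an array on 2 or more arrays were kept. On 430A these 15307 were tested by limma 3.58.1 in R 4.3.3 (lmFit, eBayes with trend) on all 9 arrays. Groups were the 3 named in the text, and 4 (with knockout on NTBC and wildtype livers apart) for the comparison on NTBC. Adjusted p-values are Benjamini-Hochberg values over all tested probe sets, with a threshold of 0.05. Precision is limited by how few arrays there are. Of the 21 probe sets, 16 were tested. A probe set that passed the filter only through the off livers was favoured to read higher there, so counts against normal use all 21.

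The members and lists were chosen with earlier results of these data known. Symbols are those of GEO's annotation of the platform; sequences are RefSeq's, build GRCm38.p6. Genes outside the 10 were named by list: the 4 of largest change that passed, or, if fewer than 2 did, the 2 of smallest p, and of these the text gives a part; Meg3, Zbtb20, Cpa1, Cd79a, Krt7, Krt19 and Alb were named after their values were seen. A gene's probe set was the one of highest mean log2 signal. Likeness was Pearson's r over 9 arrays. In simulated data of 15307 probe sets, 100 were changed 2-fold and 100 changed 4-fold, with independent noise on each array. For Fah p21 off against Fah off 48% of 2-fold and 85% of 4-fold changes were recovered, with 15 false calls. For knockout on NTBC against wildtype 27% and 85% were recovered, with 7 false calls. There too the noise was the spread within the 3 groups of the titles, which holds the difference between these livers. Recovery in the real data may differ, as their number of changed probe sets and their noise are not known. Alternatives varied the filter, offset, normalization, trend, controls, replicate block and each array in turn. Figures used matplotlib 3.10.9 under Python 3.11.15.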

Additional observations from a re-analysis of the deposited data

Results flagged for a closer look

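Of 25 probe sets checked in the 4 normal livers, 3 had 1 array whose gap to the others was large for a group of 4. Chance flags about 1 in 20 such groups. Tspan8 1420017_at read 328.2 in normal 4, above the other normal livers at 211.3 to 227.8. Scd1 read 3435.5 in normal 4, below the other normal livers at 9780.5 to 10327.3. Afp 1436880_at read 4.0 in normal 2, below the other normal livers at 5.3 to 5.4, all under the offset. Normal 4 is the Fah p21 knockout on NTBC, and with 1 such liver on 430A its genotype and the single mouse cannot be told apart.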

How the results depend on the processing

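None of 234 alternative member values between the genotypes off NTBC and none of 183 among the livers on NTBC passed, the probe set that H19 shares with Mir675 included. Of the members' differences from normal, which carry no test, 32 alternative values for Fah p21 off and 13 for Fah off moved by more than the spread between replicates, beside 236 and 272 that did not. For Fah p21 off against Fah off, 6 probe sets passed over the whole array. There were 1 with a filter at the 60th percentile, 1 with an offset of 1 signal unit, 14 with the offset at the 25th percentile, 3 with scaling to a common median, 13 without the intensity trend, 0 as a difference of the off minus on changes, and 1 to 58 with 1 array left out (58 without Fah p21 off 1). For knockout on NTBC against wildtype, 23 passed, with 1 without a filter, 7 with quantile normalization, 42 with scaling to a common median, 13 without the trend and 1 to 19 with 1 array left out. For Fah off against normal, 5437 passed, 3281 against the control of the same genotype and 4304 to 5245 with 1 array left out. For Fah p21 off against normal, 4353 passed, 2353 against the control of the same genotype and 2481 to 4453 with 1 array left out. Of the 4353, 2716 were higher and 1637 lower, 2327 and 2170 after quantile normalization, and 1625 and 2507 after scaling to a common median, which moved the median of all probe sets from 0.11 to -0.13. On 430 2.0, 2979 probe sets were at least 2-fold higher in both livers, and 3427 to 4734 with 1 off liver left out, since fewer livers had to pass. The cause of the other shifts was not tested.

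Replicate numbers recur between groups, but same-numbered arrays deviated together with correlations of only -0.281 to 0.0713 over 7 pairs, so the numbers were not taken as pairing. With the replicate number as a block, 1 probe set passed for Fah p21 off against Fah off, 4463 passed when Fah off was set against normal, and 3479 passed for Fah p21 off against normal. Of the alternative values of genes named by list, 97 no longer passed and 10 newly passed, beside 1959 on the same side of the threshold. The changes of dim genes depend on the offset: with the 25th percentile, Ly6d changed by 5.90 in Fah p21 off and 6.10 in Fah off livers, and Spink1 by 3.37 and 3.39.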
